A study of Caenorhabditis elegans with 8 samples.

Results

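Larval editing-enriched regions (EERs) absent from the embryo list of *C. elegans* are described here: 232 EERs, beside 1291 others of the full list that did not meet the rule. An EER is a genomic stretch called by the study for its clustered A-to-I editing. An EER was included when it shared at least 1 bp, on either strand, with the deposited L1-L2 list or the L3-L4 list, and with no region of the embryo list. The regions were selected on the authors' stage lists, which rest on editing seen in the reads of these samples, and so on the contrast of larvae with embryos. Every difference between larvae and embryos given for them is a description of that choice, without a test, and not evidence of stage regulation.

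A-to-I editing is carried out by ADAR enzymes, which deaminate adenosines within double-stranded RNA (dsRNA), and inosine is read as guanosine in sequencing. Clusters of such sites therefore mark RNA that was paired, usually where inverted repeats in introns or untranslated regions fold back on each other. In the worm, long dsRNA is also the substrate of Dicer and of the RNA interference machinery, and editing is known to keep many of these transcripts out of that pathway.

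The worms were wild-type Bristol N2, bleached to obtain eggs and grown in liquid medium at 20 °C, with no other genotype or treatment. Whole animals were taken as mixed-stage embryos, as L1-L2 larvae (grown for 6 to 20 hours), as L3-L4 larvae (28 to 42 hours) and as young adults (50 to 54 hours). Each larval sample was a mixture of both intermolt stages and the molt between them, in volumes of 5, 5 and 2, so events within a larval stage are averaged. Total RNA and dsRIP, the RNA pulled down with the J2 antibody against dsRNA, were both sequenced for every stage. The labels give 1 sample per stage and molecule, 8 in all, and the deposited table holds 3 numbered columns for each, which may be separate cultures or technical repeats. Values below are means ± SD over the 3 columns, always in the order embryo, L1-L2, L3-L4 and young adult, and p-values measure the spread between the samples given.

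Samples held 1992079 to 2264595 reads for total RNA and 1211042 to 1751557 for dsRIP, recovered exactly from the deposited FPKM (fragment counts divided by feature length and by sequencing depth). Marker levels did not follow the labels everywhere. The summed total RNA level of 8 embryo genes was 467 FPKM in embryos and 113 to 388 afterwards, and that of 6 yolk genes was 4726 in young adults and at most 15.3 before. The 8 sperm genes, meant to mark L4, were at 37.2 in L3-L4 larvae against 636 in young adults, and the 8 moult genes were at 761 in embryos, 171 in L1-L2 larvae and 418 in L3-L4 larvae. Samples are whole worms, so fewer cells of a type and less RNA per cell cannot be told apart.

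Of the 232 regions, the L1-L2 list held 178 and the L3-L4 list 123, with 69 in both. The L1-L2 list also held more of all EERs, 456 against 348 for L3-L4. Of the 315 EERs in both the embryo list and a larval list, these lists held 278 and 225. Of all 232, 106 were in the L1-L2 list and no other stage list, 50 in the L3-L4 list and no other, and 58 in both larval lists but not in the young adult list. The young adult list of 133 regions overlapped 18 of the 232 (7.76%). It overlapped 8.86% of all EERs and 32.4% of those in both the embryo list and a larval list. At the inner edge of the rule, EA6_EER71+ (chromosome I, 1216734-1217089, in ce10 as are all positions here) shared 37 bp with a larval region, and EA6_EER244+ (chromosome I, 2868126-2869633) lay 635 bp from the nearest embryo region. Just outside it, EA6_EER67+ (chromosome I, 1201520-1202971) was left out for a shared stretch of 52 bp with the embryo list. Where only the same strand counted, 226 of the 232 remained and 6 others entered.

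The lists by molecule, which the rule did not use, put nearly all of these regions in dsRIP. Of 232, 214 (92.2%) overlapped the list called on dsRIP samples and 91 (39.2%) the list called on total RNA, against 74.7% and 32.8% of all EERs, and 93.6% and 62.4% of the EERs of the embryo list. The dsRIP list alone held 127 of the larval regions, both lists held 87, the total RNA list alone held 4, and neither held 14. The regions were also shorter than those of the embryo list, with a median of 448.5 bp (52 to 2427) against 615.5 bp, but not than all EERs (417 bp). Their median authors' score was 7 against 12, and their median read number over the 8 samples was 41 (9 to 1597) against 68. Over all EERs these medians were 5 and 33.

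The larval EERs lay mostly on the autosome arms. Of 232, 186 (80.2%) were in the outer 25% at either end of a chromosome, compared with 85.0% of all EERs, 89.4% of the embryo-list EERs and 45.2% of genes. Chromosome I held 54, chromosome IV 51, chromosome V 46, chromosome III 40, chromosome II 35 and chromosome X 6. Another larval EER lay within 10000 bp for 71 of them, and an embryo region for 60. Spans in ce10 include introns, and whether a region lies in an exon, an intron or an untranslated region was not analysed here.

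A gene span held 181 of the larval EERs (78.0%), in 152 host genes, and 51 lay in none. Of the hosted regions, 167 were in protein-coding genes, 6 in pseudogenes and 2 in snRNA genes. The strand of the EER was that of the host for 159 and the opposite for 18. The protein-coding hosts were long, with a median span of 8476 bp against 2151 bp for all protein-coding genes, as were those of all EERs (7059.5 bp). For 37 of the 181 the host also held an EER of the embryo list, and 122 of the 152 host genes held none.

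Host genes with several larval EERs numbered 21, and 6 held 3 or more. mca-3 (chromosome IV, 3103152-3133141), which encodes a plasma membrane calcium pump, held 4 larval EERs and 2 EERs of the embryo list. spsb-1 (chromosome II, 15207367-15226652), which encodes a protein with SPRY and SOCS box domains, held 4 and none of the embryo list. The other 4 hosts held 3 each and none of the embryo list: crh-1, the CREB transcription factor gene; pqn-41, which encodes a glutamine- and asparagine-rich protein; tra-1, the zinc finger factor that ends the sex determination pathway; and trip-4, a homologue of a transcription coactivator subunit. In trip-4 and in spsb-1 larval EERs on opposite strands overlapped. These were EA6_EER627- (chromosome II, 15040984-15042230) and EA6_EER628+ (chromosome II, 15041377-15042229) in trip-4, and EA6_EER635+ and EA6_EER636- in spsb-1. Whether counting used strand is not stated, so the reads of such regions may not be separable.

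**Figure D1:**
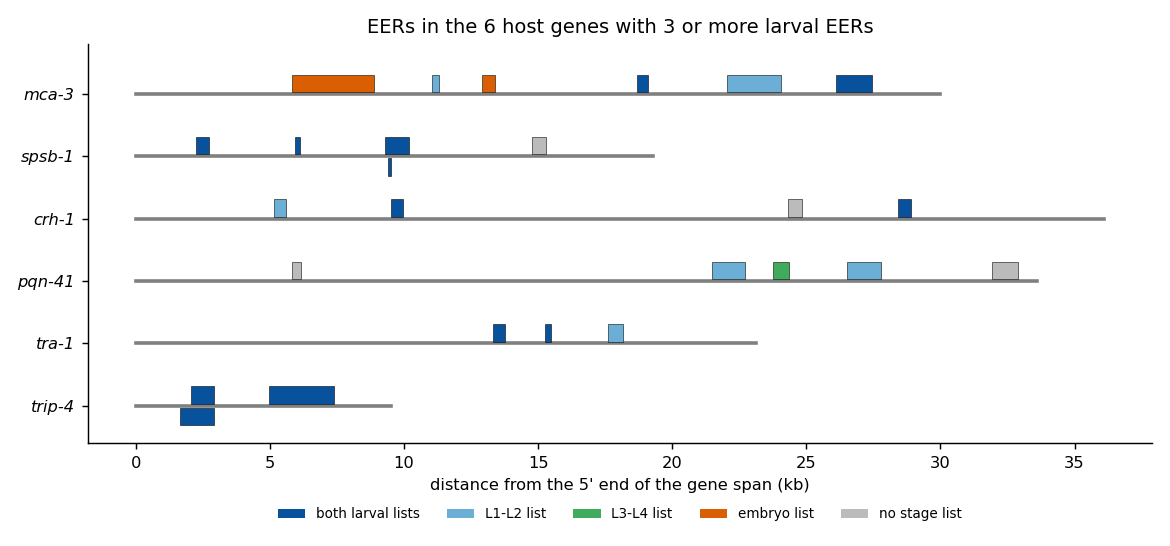
Position of every EER in the 6 host genes with 3 or more larval EERs, as distance in kb from the 5′ end of the gene span (grey line), with boxes above the line on the gene's strand and boxes below it on the other strand. Colours give the stage lists: mca-3 alone holds EERs of the embryo list (2), and tra-1 holds 3 larval EERs and no other EER.

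By level, the larval EERs were highest in L1-L2 larvae and lowest in young adults. Their median FPKM in total RNA was 2.79, 5.07, 4.02 and 1.46 along the 4 stages, and in dsRIP it was 9.19, 21.8, 11.2 and 4.83. The 315 EERs shared by the embryo list and a larval list ran from 30.3 in embryo dsRIP to 20.8, 11.8 and 8.76. The larval EERs were thus at about the level of the shared ones in larval dsRIP and below them in embryo dsRIP. As a share of dsRIP reads, the 232 regions took 1611 ± 162, 3027 ± 548, 1804 ± 572 and 1074 ± 187 RPM (reads scaled to 1000000 library reads). In total RNA they took 945 ± 129, 1127 ± 73.6, 882 ± 133 and 645 ± 94.6 RPM. L1-L2 dsRIP, with columns from 2479 to 3576, did not overlap any other dsRIP stage, while the L3-L4 columns (1160 to 2251) overlapped those of embryos (1462 to 1784) and young adults (881 to 1255).

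**Figure D2:**
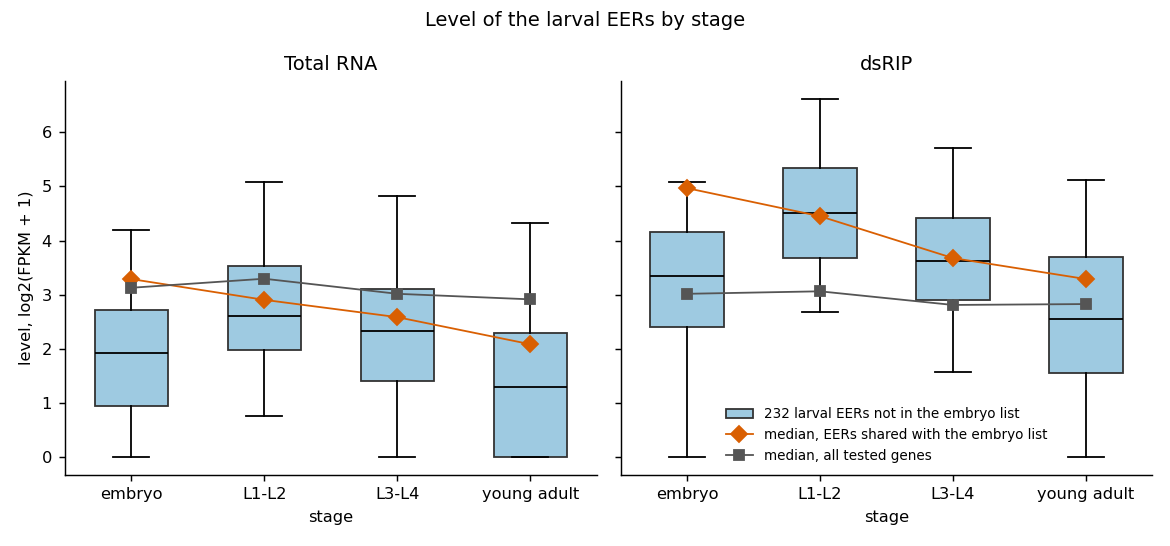
Level of the 232 larval EERs by stage in total RNA (left) and dsRIP (right), as log2(FPKM + 1); boxes give the quartiles with the median line, and whiskers the 5th and 95th percentiles. Diamonds are medians of the 315 EERs shared by the embryo and larval lists and squares those of all tested genes: the larval EERs had a median of 21.8 FPKM in L1-L2 dsRIP, while the shared EERs had medians from 30.3 FPKM in embryo dsRIP to 8.76 in young adult dsRIP.

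Absence from the embryo list did not mean absence of reads in embryos. Of the 232 regions, 213 had at least 1 embryo read over both molecules and 88 had at least 10. The median was 7 embryo reads against 29 larval reads. These counts are not scaled for depth, and the larval count sums both larval stages, with more samples and more reads than the embryo. In embryo total RNA 44 had 0 reads, and in embryo dsRIP 25 did. A count of 0 there allows up to 1.49 RPM in total RNA and 2.48 in dsRIP, and these limits cover counting error only. The log2 difference between the larval mean and the embryo had a median of 0.59 in total RNA and 0.57 in dsRIP, against -0.55 and -0.67 for all EERs. By single columns the median was 0.00, 1.02 and 0.27 in total RNA and 0.40, 1.17 and 0.47 in dsRIP, so the columns differed by more than the median itself.

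Larval levels at least 2-fold above the embryo were seen for 82 regions in total RNA and 90 in dsRIP (background over all features 26.0% and 25.3%), and levels at least 2-fold below for 27 and 15 (background 27.3% and 29.4%). The embryo level reached that of both larval samples in 48 regions in total RNA and 34 in dsRIP. Among all EERs it did so for 848 and 849. It lay below both larval samples in 122 and 130 of the 232 (background over all features 34.4% and 31.3%). Columns overlapped for most of the 232 regions. All 6 larval columns were above all 3 embryo columns for 14 regions in total RNA (background 13.5%) and 25 in dsRIP (background 10.4%). Those are shares of 6.03% and 10.8%. All 6 were below all 3 for 8 regions in total RNA (background 19.9%) and 5 in dsRIP (background 18.1%). The stage difference was therefore not separable column by column for most regions.

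Among the 69 regions of both larval lists, 58 (84.1%) were higher in larvae in total RNA and 62 (89.9%) in dsRIP. Among the 106 of the L1-L2 list alone it was 61 (57.5%) and 73 (68.9%). The background of features higher in larvae was 48.2% in total RNA and 45.7% in dsRIP. Young adults were below the larval mean for 194 of 232 regions (83.6%) in total RNA and 205 (88.4%) in dsRIP, with a background of 54.1% and 51.5%, and 65.0% and 74.5% over all EERs. Since a place in a larval list favours high larval values, these counts also follow from the choice.

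The gene tra-1 held 3 larval EERs, of which 1 had no embryo read in either molecule. EA6_EER808- (chromosome III, 11181352-11181810) had total RNA levels of 0, 8.84 ± 1.96, 10.7 ± 6.12 and 5.18 ± 2.61 FPKM, and dsRIP levels of 0, 31 ± 9.995, 20.1 ± 8.99 and 7.01 ± 7.52. Both embryo samples held 0 reads and both larval samples together 20 and 34. Against a floor of 3 reads in the embryo sample, larvae were 3.14-fold higher in total RNA and 4.55-fold higher in dsRIP. Folds given below as at least a value were set in the same way. They take the larval count as exact, so counting error in larvae could make the true fold smaller. EA6_EER807- (chromosome III, 11179625-11179858) had 0, 30.3 ± 9.37, 47.3 ± 23.3 and 3.05 ± 5.29 FPKM in dsRIP, at least 3.75-fold more in larvae, and 2.06 ± 3.57, 17.4 ± 16.5, 8.9 ± 9.81 and 5.65 ± 5.35 in total RNA, with an SD near the mean. EA6_EER806- (chromosome III, 11176961-11177497) differed from its neighbours, with dsRIP reads at every stage (6.1 ± 2.24, 22 ± 13, 11.7 ± 6.1 and 15 ± 6.69 FPKM) and few in total RNA (0, 0.679 ± 1.18, 4.3 ± 2.01 and 0.917 ± 1.59). The tra-1 gene itself had 10.02, 31.4, 36.1 and 28.1 FPKM in total RNA, so the gene too was lowest in embryos, and all 3 EERs lie on its strand.

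**Figure D3:**
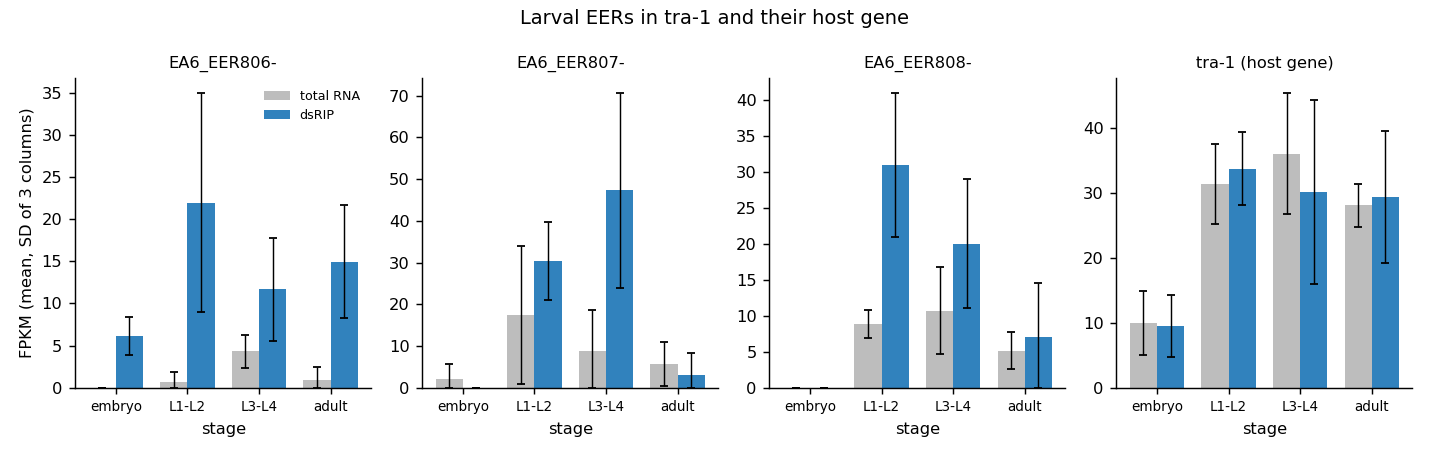
FPKM of the 3 larval EERs in tra-1 and of tra-1 itself by stage (adult stands for young adult), in total RNA (grey) and dsRIP (blue); bars are means and error bars the SD of the 3 numbered columns. EA6_EER808- is at 0 in both embryo samples and at 31 FPKM in L1-L2 dsRIP, and EA6_EER806- has dsRIP signal at all 4 stages.

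Including tra-1, 19 regions had 0 embryo reads in both molecules, with 9 to 69 larval reads. EA6_EER476- (chromosome II, 2285563-2286099), in no gene span, had the most, at 0, 24.3 ± 10.9, 6.42 ± 5.51 and 5.63 ± 4.7 FPKM in total RNA and 0, 45.3 ± 31.9, 5.68 ± 4.67 and 11.5 ± 7.91 in dsRIP. Its larval level was at least 5.19-fold that of the embryo in total RNA and 4.82-fold in dsRIP, with most of its reads in L1-L2 larvae. EA6_EER1444+ (chromosome V, 18417001-18417473), also outside genes, was a dsRIP signal, at 0, 44.8 ± 37.5, 20.3 ± 9.19 and 0 FPKM against 6 reads in all of total RNA, and had 0 reads in young adults too. It was at least 5.89-fold higher in larval than in embryo dsRIP.

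Other large differences were shared with the host gene. EA6_EER1487- (chromosome V, 20498358-20498646) in dct-16, a gene named for its control by the FOXO factor DAF-16, had 0, 20.6 ± 15.4, 38 ± 12.7 and 3.41 ± 5.9 FPKM in total RNA and 3.31 ± 5.74, 46.3 ± 19.98, 89.3 ± 61.6 and 18 ± 17.9 in dsRIP. The dct-16 gene had 8.33, 288, 1583 and 1104 FPKM in total RNA, and thus the same order of stages except for young adults, where the EER was low and the gene was not. EA6_EER1327- (chromosome V, 4041200-4041355) in C49G7.10 had 2.73 ± 4.73, 75.7 ± 12.4, 70.3 ± 40.1 and 25.7 ± 27 FPKM in total RNA and 0, 80.9 ± 15.7, 46.9 ± 21.5 and 30.1 ± 24.8 in dsRIP, and its host 0.456, 31.2, 20.02 and 14.8 in total RNA. EA6_EER1373- (chromosome V, 8923988-8924324) in H14N18.4 and EA6_EER1328- (chromosome V, 4126314-4126531) in T05B4.13 had 0 reads in embryo total RNA. Their larval total RNA was at least 5.66-fold and 2.83-fold higher, but the latter had 19.4 ± 8.04 FPKM in embryo dsRIP.

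Some regions of the larval lists had more signal in embryos. EA6_EER524+ (chromosome II, 10875321-10876388) in orc-2, which encodes a subunit of the origin recognition complex, had 36.5 ± 18.1, 5.79 ± 5.64, 7.98 ± 3.23 and 15.9 ± 4.52 FPKM in total RNA and 45.1 ± 15.9, 10.3 ± 3.21, 11.3 ± 7.91 and 19.2 ± 7.55 in dsRIP. EA6_EER1014- (chromosome IV, 1582232-1583842) in the nucleoporin gene npp-8 had 43.7 ± 23.3, 11.1 ± 3.61, 13.8 ± 3.18 and 17.1 ± 6.53 FPKM in total RNA. The hosts were also highest in embryos, orc-2 with 40.8, 12.3, 12.6 and 21.5 FPKM and npp-8 with 92.5, 25.5, 31.1 and 43.5 in total RNA. EA6_EER39+ (chromosome I, 867699-870124) in Y95B8A.7 was also higher in embryo dsRIP, with 22.3 ± 3.02, 8.79 ± 2.5, 7.8 ± 1.1 and 9.22 ± 3.04 FPKM. Outside genes, EA6_EER594+ (chromosome II, 13475751-13476392) had 10.7 ± 5.84, 2.27 ± 3.93, 0 and 3.47 ± 3.07 FPKM in total RNA, a log2 difference of -2.69, and EA6_EER928- had -1.64. EA6_EER540+ in Y57A10A.14 had -1.59 in total RNA but 0.07 in dsRIP. Among regions with at least 30 reads the lowest differences in dsRIP were -2.09 for EA6_EER1414-, -1.97 for EA6_EER524+, -1.80 for EA6_EER1359-, -1.33 for EA6_EER39+ and -1.12 for EA6_EER1184+ in lsm-3, which encodes an Sm-like RNA-binding protein.

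Over the 180 larval EERs whose host gene was measured, the stage difference of the region was related to that of its host. Pearson's r across regions was 0.46 in total RNA and 0.57 in dsRIP, with Spearman's rho at 0.46 and 0.55. These are descriptions, since regions and hosts share libraries and many share reads. The signs agreed for 126 and 127 of the 180. For 38 regions in total RNA and 47 in dsRIP the EER was higher in larvae and the host was not. One of these was EA6_EER634+ in spsb-1, with a log2 difference of 3.34 in total RNA and 2.38 in dsRIP where the gene had -0.18 and -0.49. In M01H9.3 the region and the gene were both higher in larvae, by 2.46 and 0.17 on the log2 scale in total RNA. Its EER EA6_EER1133- (chromosome IV, 4474476-4475390) had 0.526 ± 0.912, 7.69 ± 4.31, 7.12 ± 6.75 and 3.38 ± 0.746 FPKM in total RNA and 3.58 ± 3.82, 34.7 ± 25, 26 ± 15.4 and 13.1 ± 11 in dsRIP, whereas the gene had 63.7, 77.6, 66.6 and 73 in total RNA. Over these 180 pairs, where a host with several regions counts more than once, hosts had a median difference of 0.17 in total RNA and 0.00 in dsRIP. Counted once each, the 151 tested host genes had 0.11 and -0.02.

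**Figure D4:**
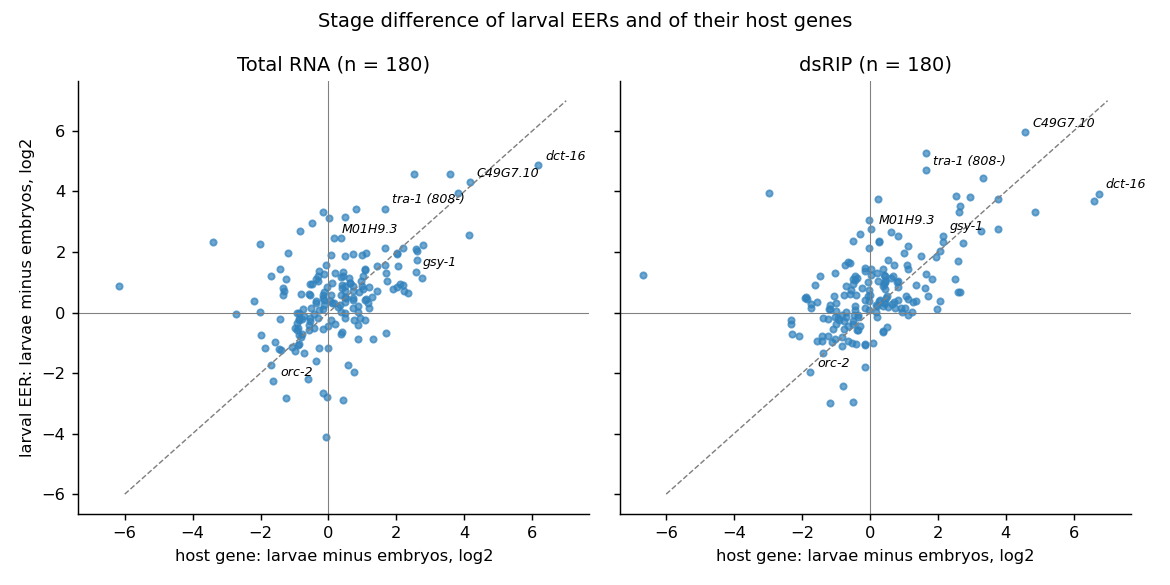
Log2 difference between the larval mean and the embryo for 180 larval EERs (vertical) and their host genes (horizontal), in total RNA (left) and dsRIP (right), with the line of equal difference dashed. C49G7.10 and dct-16 lie at the upper right where region and gene are both high in larvae, and M01H9.3 lies above a host near 0.

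The comparison of dsRIP with total RNA, which the rule did not use, asks whether these regions are recovered by the dsRNA antibody. Most larval EERs had more signal in dsRIP than in total RNA, in a share near that of all EERs. With limma over all features and the 4 stages as repeats, 40 of the 232 were higher in dsRIP (background 2.11% higher and 2.12% lower over all features, and 18.9% higher over all EERs in the table) and 0 were lower, where 162 had an unadjusted p under 0.05, 3 of them lower. The share called, 17.2%, was below the 31.8% of embryo-list EERs and the 45.1% of EERs shared by the embryo list and a larval list. Those sets also held more reads, with medians of 68 and 115 over the 8 samples against 41. All 232 passed the filter on low values. EERs were called largely on dsRIP reads of these samples, so the direction is not independent evidence. The log2 ratio, the difference of log2(FPKM + 1) averaged over the stages, had a median of 1.32, against 1.37 for all EERs and -0.12 for genes. It was above 0 for 219 regions, and at all 4 stages for 141 (background 10.4%). The number of calls depends on the fit: it was 61 with the medians of all genes set equal, 22 with no filter, 11 without the trend, and 0 without the stage block. It was also 0 without the embryo, the L1-L2, the L3-L4 or the young adult pair in turn, when 106 to 144 regions were higher at an unadjusted p under 0.05.

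By stage the median ratio of the larval EERs was 1.14, 1.64, 1.25 and 1.05 along the 4 stages. For all EERs it was 1.52, 1.58, 1.19 and 0.99. Single pairs of columns gave 0.65 to 1.06 (embryo), 1.52 to 1.77 (L1-L2), 0.43 to 1.26 (L3-L4) and 0.11 to 0.61 (young adult), so the L1-L2 pairs stood above all others. Medians of single pairs need not centre on those of the column means. By list, 19 of the 69 regions in both larval lists passed, 14 of the 106 in the L1-L2 list alone and 5 of the 50 in the L3-L4 list alone. Of the 18 also in the young adult list 9 passed, but 11 of the 18 are among the 69. The shares were 27.5%, 13.2%, 10% and 50%, with a background of 2.11% over all features and 18.9% over EERs. Differences between these groups were not tested.

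**Figure D5:**
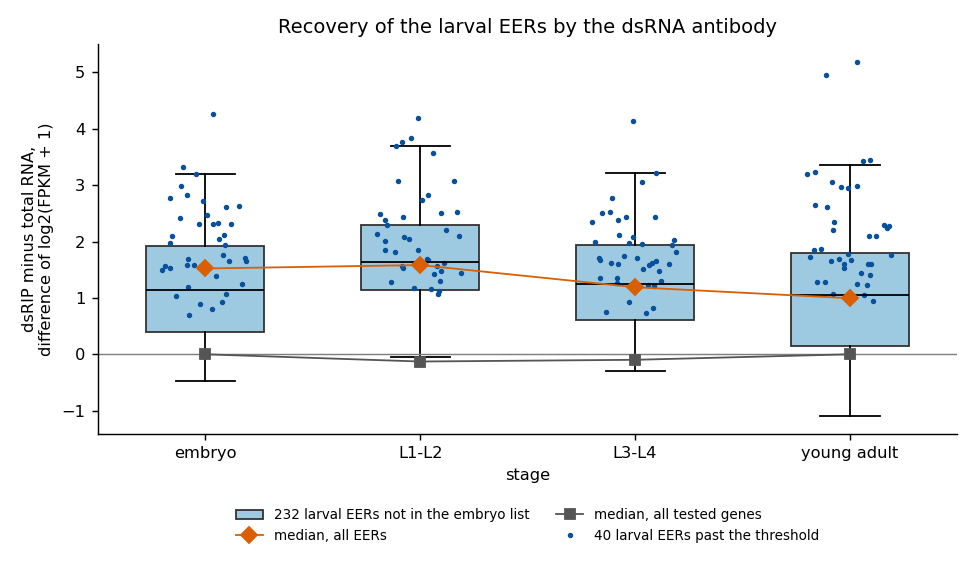
Difference between dsRIP and total RNA on the log2(FPKM + 1) scale at each stage for the 232 larval EERs (boxes with quartiles and median, whiskers at the 5th and 95th percentiles), with the 40 regions past the threshold as points. Medians of all EERs (diamonds) and of all tested genes (squares) are joined by lines: the larval EERs had medians of 1.14, 1.64, 1.25 and 1.05 and genes lay near 0.

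Among regions with at least 30 reads, the largest ratios past the threshold belonged to regions with few reads in total RNA. EA6_EER1030+ (chromosome IV, 1730704-1730840) in ptpn-22, a tyrosine phosphatase gene, had 0, 14.2 ± 18.2, 4.15 ± 7.18 and 0 FPKM in total RNA and 18.3 ± 17.1, 47.7 ± 82.6, 41.8 ± 6.33 and 35.5 ± 17.8 in dsRIP, and rose by 3.55 ± 0.60 (SE, adjusted p = 0.0479), on 4 and 27 reads. EA6_EER1503+ (chromosome X, 7021591-7022031) in the carbonic anhydrase gene cah-5 had 1.93 ± 3.35, 2.8 ± 2.54, 4.81 ± 6.04 and 0 FPKM in total RNA and 22.3 ± 3.51, 48.2 ± 13.1, 16.9 ± 2.16 and 30.1 ± 18.9 in dsRIP, a log2 ratio of 3.32 ± 0.56 (adjusted p = 0.0474). Its ratio was positive at every stage (2.99, 3.69, 1.62 and 4.96).

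EA6_EER492+ (chromosome II, 4241111-4241433) in C16A11.2 gave 3.11 ± 0.30 (adjusted p = 0.0183) on 3 reads in total RNA and 29 in dsRIP, a depth-scaled ratio of 14.6 with an exact 95% counting interval of 4.51 to 74.7. EA6_EER806- in tra-1 followed with 2.73 ± 0.45 (adjusted p = 0.047). EA6_EER791- (chromosome III, 10821996-10822274) in sca-1, which encodes the calcium pump of the sarcoplasmic reticulum, had 1.53 ± 2.65, 3.12 ± 2.81, 20.8 ± 13.8 and 1.49 ± 2.57 FPKM in total RNA and 11.7 ± 4.36, 47.8 ± 29.3, 50.03 ± 40.6 and 25.9 ± 3.64 in dsRIP, a log2 ratio of 2.64 ± 0.44 (adjusted p = 0.0463). The sca-1 gene itself had 83.5, 169.8, 165 and 73 FPKM in total RNA and 84.1, 168, 169 and 73.9 in dsRIP. Relative to it the EER was higher in dsRIP by 2.63 ± 0.49 (adjusted p = 0.0214).

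All 4 larval EERs of mca-3 had positive ratios, and 3 passed: EA6_EER1105- (chromosome IV, 3109105-3111102) rose by 1.43 ± 0.19 (adjusted p = 0.0298), EA6_EER1106- by 1.94 ± 0.22 (adjusted p = 0.0247) and EA6_EER1108- by 1.31 ± 0.20 (adjusted p = 0.0416). EA6_EER1105- had 3.45 ± 1.89, 9.84 ± 2.35, 5.2 ± 2.73 and 3.93 ± 1.02 FPKM in total RNA and 13 ± 3.35, 32.4 ± 5.71, 16.3 ± 3.54 and 8.5 ± 4.87 in dsRIP, highest in L1-L2 larvae in both. In spsb-1, EA6_EER635+ (chromosome II, 15216638-15217565) passed at 2.03 ± 0.17 (adjusted p = 0.0147), with 3.76 ± 0.564, 8.81 ± 3.47, 4.21 ± 5.78 and 1.06 ± 1.84 FPKM in total RNA and 14.5 ± 4.3, 41.2 ± 14.6, 20.3 ± 15.6 and 8.96 ± 5.35 in dsRIP, and the other 3 gave 1.61, 2.32 and 3.06 without passing. In crh-1, EA6_EER821+ (chromosome III, 11686068-11686554) rose by 1.66 ± 0.14 (adjusted p = 0.0149). In trip-4 all 3 were above 0 (1.52, 1.53 and 0.90) without passing, the first at an adjusted p = 0.0528. The overlapping regions in trip-4 and in spsb-1 may hold the same reads, so their ratios are not separate observations.

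The 3 larval EERs of pqn-41 had unlike values. EA6_EER692+ (chromosome III, 1932484-1933727) had 6.73 ± 3.57, 7.76 ± 3.18, 3.81 ± 2.52 and 1.33 ± 2.31 FPKM in total RNA and 22.3 ± 4.8, 24.8 ± 0.693, 11.2 ± 3.35 and 6.38 ± 0.75 in dsRIP, and rose by 1.54 ± 0.16 (adjusted p = 0.0206). EA6_EER690+ (chromosome III, 1927447-1928653), with 87.5 ± 29.1, 93.8 ± 24.8, 59.8 ± 16.5 and 47.2 ± 10.8 FPKM in total RNA and 62.6 ± 10.8, 87.7 ± 19.1, 47.4 ± 13.5 and 25.1 ± 13.8 in dsRIP, gave -0.45 ± 0.14 (adjusted p = 0.151). It held 1109 reads, the second most of all 232, and was above the level of its own host (58.3, 38.1, 25.7 and 20.9 FPKM in total RNA). The difference between the 2 regions was not tested.

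Beside EA6_EER690+, the most-read regions included several with ratios near or below 0. EA6_EER238+ (chromosome I, 2729185-2730765) in yop-1, which encodes a membrane-shaping protein of the endoplasmic reticulum, held 1597 reads, at 125 ± 31.3, 67.2 ± 4.37, 54.1 ± 25 and 66.7 ± 17.5 FPKM in total RNA and 95.1 ± 19.4, 56 ± 8.75, 51.5 ± 13.8 and 63.7 ± 19.9 in dsRIP, with a log2 ratio of -0.20 ± 0.08 (adjusted p = 0.254). EA6_EER1130+ in F55F10.1 gave -0.12 (0.04 with the medians of all genes set equal) and EA6_EER1014- in npp-8 0.06 (-0.16 without the L1-L2 pair), while EA6_EER193+ in Y37E3.17 gave 0.31, EA6_EER572- in the glycogen synthase gene gsy-1 0.43, EA6_EER524+ in orc-2 0.44 and EA6_EER39+ in Y95B8A.7 0.60. Of the 10 most-read regions only EA6_EER1105- passed. Without the 2 leading regions, in yop-1 and pqn-41, the larval EERs took 641 ± 67.8, 908 ± 41.5, 724 ± 167 and 483 ± 54.2 RPM in total RNA, so the embryo share was the most affected.

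The 5 longest regions were EA6_EER629+ in trip-4 (2427 bp), EA6_EER39+ (2426 bp), EA6_EER501+ in unc-104 (2171 bp), EA6_EER869+ in Y49E10.21 (2034 bp) and EA6_EER1105- in mca-3 (1998 bp). EA6_EER501+ (chromosome II, 6998620-7000790) lies in the gene of the kinesin that carries synaptic vesicle precursors, and had 1.43 ± 1.48, 3.73 ± 2.03, 1.31 ± 1.46 and 0.676 ± 0.6004 FPKM in total RNA and 4.79 ± 4.16, 13.1 ± 0.747, 2.99 ± 1.54 and 1.69 ± 1.52 in dsRIP. It was highest in L1-L2 larvae, as was unc-104 (13.6, 41.2, 22.3 and 11.7 FPKM in total RNA). Its dsRIP ratio was 1.08 ± 0.28 (adjusted p = 0.103). EA6_EER869+ had 11.5 ± 3.06, 15.1 ± 3.26, 8.83 ± 5.74 and 10.4 ± 3.18 FPKM in dsRIP and a ratio of 0.65, and EA6_EER629+ had 1.67 ± 1.04, 7.18 ± 1.19, 4.95 ± 2.35 and 2.21 ± 0.923 FPKM and a ratio of 0.90.

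No larval EER was lower in dsRIP past the threshold. The most negative value was that of EA6_EER1414- (chromosome V, 16598367-16598453), outside genes, which had 37.9 ± 19.1, 31.7 ± 16.8, 22.2 ± 27 and 44.7 ± 50.9 FPKM in total RNA and 17.8 ± 15.4, 18.4 ± 16, 0 and 0 in dsRIP, a log2 ratio of -2.96 ± 0.94 (adjusted p = 0.151) on 27 and 4 reads. The 2 regions hosted by snRNA genes, named here after their values were seen, also went that way. EA6_EER233- in F32B5.9 gave -2.06 (adjusted p = 0.0564) and EA6_EER1141- in F42C5.12 -2.57 (adjusted p = 0.328). Both host snRNAs were lower in dsRIP, with log2 ratios of -4.50 ± 0.40 (adjusted p = 0.0161) and -2.54 ± 0.24 (adjusted p = 0.0182).

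Host genes as a group had a median log2 ratio of -0.01. Of 151 tested hosts 3 (1.99%) were higher in dsRIP and 7 (4.64%) lower, where the background over all tested genes was 0.754% and 2.29%. In a separate fit of the log2 difference between EER and host, 115 of 180 larval EERs had an unadjusted p under 0.05. Compared with its host, the larval EER was higher in dsRIP for 92 of 180 and lower for 0 (background 43.1% higher and 0.167% lower over all EERs with a host). The median relative ratio was 1.34, against 1.35 for all EERs. That count was 42 without the stage block, 72 without the young adult pair, and 0 without the embryo, the L1-L2 or the L3-L4 pair. In larvae the regions lay below their hosts, with a median log2 difference of -2.44 in total RNA and -0.76 in dsRIP, and 17 and 52 of the 180 were above the host. Relative to its host, EA6_EER354- in F15D3.6 had 2.81 ± 0.38 (adjusted p = 0.0171), EA6_EER1133- in M01H9.3 1.85 ± 0.27 (adjusted p = 0.0171) and EA6_EER1184+ in lsm-3 2.51 ± 0.27 (adjusted p = 0.0171). EA6_EER1014- in npp-8 (-0.05 ± 0.29) and EA6_EER238+ in yop-1 (-0.04 ± 0.24) did not depart from their hosts past the threshold.

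In both larval lists and the young adult list stood 11 regions, of which the 10 longest are given. EA6_EER486+ (chromosome II, 3210818-3211255) in ZC239.6 had 6.03 ± 2.86, 29.3 ± 9.73, 12.5 ± 2.74 and 8.18 ± 2.27 FPKM in total RNA and 29 ± 12, 147 ± 66.1, 75.2 ± 43.2 and 21.4 ± 7.12 in dsRIP, and rose in dsRIP by 2.04 ± 0.22 (adjusted p = 0.0223). ZC239.6 was among the 3 hosts that were themselves higher in dsRIP, and the EER did not pass relative to it (0.92 ± 0.30, adjusted p = 0.0599). EA6_EER354- (chromosome I, 11577013-11577285) in F15D3.6 had 7.7 ± 7.02, 26.4 ± 19.99, 16.2 ± 6.2 and 3.86 ± 3.56 FPKM in total RNA and 32.5 ± 16.2, 66.3 ± 34.4, 91.7 ± 69.4 and 51.8 ± 18.6 in dsRIP, and a ratio of 2.28 ± 0.36 (adjusted p = 0.0416).

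EA6_EER1416- (chromosome V, 16609665-16609874) lies in the pseudogene Y32B12C.5, with 6.62 ± 6.9, 24.5 ± 11.1, 31.9 ± 35.6 and 15.1 ± 13.9 FPKM in total RNA and 16.5 ± 9.43, 138 ± 99, 98.9 ± 20.2 and 32.6 ± 16.8 in dsRIP, and rose by 1.58 ± 0.25 (adjusted p = 0.0426). EA6_EER1133- in M01H9.3, given above, rose by 1.76 ± 0.17 (adjusted p = 0.0183) and EA6_EER1000+ in the sphingosine phosphate lyase gene spl-3 by 1.81 ± 0.31 (adjusted p = 0.0485). The ratio was 1.02 for EA6_EER1373- in H14N18.4, 1.60 for EA6_EER1408+ in the phospholipase gene plc-2 and 0.87 for EA6_EER1233- in map-2, a methionine aminopeptidase gene, all without passing. In young adults EA6_EER1233- (chromosome IV, 16847849-16849828) was higher in total RNA than at any other stage, with 2.14 ± 2.27, 8.2 ± 2.24, 6.99 ± 3.16 and 14 ± 4.04 FPKM.

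The nuclear hormone receptor gene nhr-114 held 2 of these regions on opposite strands, the shorter within the longer. EA6_EER1334+ (chromosome V, 4189063-4189598) had 2.96 ± 2.74, 14.7 ± 8.37, 18.5 ± 17.4 and 10.2 ± 8.87 FPKM in total RNA and 9.33 ± 4.47, 34.1 ± 24.3, 31.5 ± 30.9 and 29.6 ± 22.9 in dsRIP, and rose by 1.18 ± 0.16 (adjusted p = 0.0317). EA6_EER1335- (chromosome V, 4189186-4189527) had 2.65 ± 2.31, 4.45 ± 3.86, 7.54 ± 3.11 and 2.88 ± 4.99 FPKM in total RNA and 9.57 ± 3.52, 25.4 ± 7.43, 10.1 ± 1.27 and 14.6 ± 9.06 in dsRIP, with 1.55 ± 0.36 (adjusted p = 0.0828). Libraries were stranded per the labels' kit, but whether counting used strand is not stated, so reads of these regions may not be separable. The nhr-114 gene had 6.33, 24.6, 43 and 50.6 FPKM in total RNA. Both regions also lie within the longer gene Y45G5AM.9 (chromosome V, 4181318-4191501), and nhr-114 was taken as host for its shorter span. Y45G5AM.9 had 22.8, 11.4, 11.5 and 14.9 FPKM in total RNA, highest in embryos, so the host of these regions is not settled.

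Of the lists for pathways and tissues, 2 genes hosted a larval EER, where 152 of 25509 genes in the table (0.596%) did. For calls in dsRIP the background over all tested genes was 0.754% higher and 2.29% lower. Of 20 genes for dsRNA editing and handling, such as the ADAR gene adr-2 and the Dicer gene dcr-1, 0 hosted one, and 0 passed in dsRIP in either direction where 10 had an unadjusted p under 0.05 (median log2 ratio -0.25). Among 6 ADAR substrates of earlier work 0 did, although 5 host other EERs, with 2 higher in dsRIP and 1 lower. Among 22 genes of moulting and cuticle, nas-36, a metalloprotease gene needed for moulting, hosted EA6_EER327+ (chromosome I, 7527540-7527792), with 0, 8.02 ± 1.78, 1.5 ± 2.59 and 0 FPKM in total RNA and 3.06 ± 5.3, 40.4 ± 20.6, 8.49 ± 9.78 and 0 in dsRIP. It was highest in L1-L2 larvae and passed relative to its host at 1.71 ± 0.47 (adjusted p = 0.0392). No gene of that list passed in dsRIP, where 7 had an unadjusted p under 0.05. Among 15 neuronal genes tested, unc-13, which primes synaptic vesicles, hosted EA6_EER326+ (chromosome I, 7431505-7432798), at 4.01 ± 3.53, 10.4 ± 0.802, 3.19 ± 1.75 and 1.18 ± 2.04 FPKM in dsRIP, and 1 gene was lower. Of 13 body muscle genes 0 hosted one and 1 was higher.

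Regions in insulin signalling genes were looked at after their values were seen. EA6_EER342+ (chromosome I, 10774383-10774672) in daf-16, the FOXO factor gene, had 9.58 ± 9.99, 10.5 ± 9.11, 12.8 ± 4.9 and 4.56 ± 4.32 FPKM in total RNA and 20.5 ± 17.8, 27 ± 16.7, 22.1 ± 20.03 and 19.2 ± 4.45 in dsRIP. In several of these samples the SD was near the mean. The region rose in dsRIP by 1.23 ± 0.21 (adjusted p = 0.0494). EA6_EER727- (chromosome III, 3009092-3009461) in daf-2, the insulin receptor gene, held 2 reads in total RNA and 19 in dsRIP, a depth-scaled ratio of 14.3 with a counting interval of 3.45 to 127, and did not pass over the stages (2.73, adjusted p = 0.114).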

How the data were processed

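RNA of whole *C. elegans* was measured in 8 samples, 1 per stage (4) and molecule (total RNA and dsRIP). The submitters' processing notes name Novoalign, SAMtools 0.1.19 and bedtools 2.19.0, and ce10 as the genome build. The full list holds 1523 EERs, the embryo list 566, the L1-L2 list 460, the L3-L4 list 354 and the young adult list 133. The authors deposited FPKM in 24 columns, over 25509 genes and 1541 EERs (27050 features together), and 0 columns were left unmapped. The deposited region lists give each EER a position and a score set by the authors, a whole number whose meaning is not stated. EERs stand beside genes in the table, so a read may count in both. Starts were converted to count from 1. Symbols, classes and strand were looked up by sequence name in a WBcel235 annotation (25092 genes matched), and no position was taken from it.

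Whole reads of EERs were recovered from the FPKM steps (100% of 23047 values above 0 within 0.05 of a whole number). The 3 columns of a sample, with 348064 to 914442 reads each, were averaged. dsRIP was compared with total RNA with limma 3.58.1 in R 4.3.3 (trended eBayes, stage as a block) on the log2(FPKM + 1) scale, for features with FPKM of at least 1 in at least 2 samples, and Benjamini-Hochberg adjustment over 20628 features at a threshold of 0.05. Folds on this scale understate changes of low features. For an EER against its host, the log2 difference was fitted without trend and adjusted over 1198 EERs. The host was the gene sharing most bases, and ties went to the shorter span and then by name. No count test was run, since the values are FPKM. Scripts were tested on simulated data, and figures drawn with Python 3.11.15.

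The regions and gene lists were chosen with earlier results of these data known. Regions named are those in both larval lists and the young adult list (the 10 longest), the 5 longest, the 10 with most reads, the 5 largest stage differences each way in each molecule and the 5 largest dsRIP ratios past the threshold (the last 2 with at least 30 reads), with their hosts, and the hosts with most regions. Alternatives changed the pseudocount, filter, scaling, block, trend, stage pairs, host rule, overlap rule, strand, score, chromosome ends and the mean over columns. Fits over 24 columns, regions with at least 30 reads and runs without 2 regions were added after the data were seen.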

Additional observations from a re-analysis of the deposited data

Results flagged for a closer look

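The dsRIP log2 ratio of EA6_EER1000+ in spl-3 was 0.695 in embryos against 2.08, 2.12 and 2.34 at the later stages. Its gap to the nearest other stage was 0.839 of the whole range, above the limit for 4 values. It was the only case among 41 groups of 4 values examined, the 40 named regions and the median, where chance gives about 1 in 20. The cause was not tested.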

How the results depend on the processing

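Against 40 larval EERs called higher in dsRIP, the count moved to 22 with no filter, 61 with the medians of all genes set equal (all 40 shared), 11 with no trend, 0 without the stage block and 81 over the 24 columns as separate values. It was 0 to 0 with each stage pair left out, with 106 to 144 at an unadjusted p under 0.05. The number called lower went from 0 to 1 with a filter of FPKM 10 and to 3 over the 24 columns. Relative to the host, 92 became 42 without the stage block and 0 to 72 with a stage pair left out, and 0 lower became 1 with a pseudocount of 5. The cause was not tested, though each left-out pair also removes samples. The share in the outer chromosome parts was 87.1% with wider outer parts, and the share in a gene span 71.1% on the same strand only. For single regions the ratio turned sign for EA6_EER807- (-0.0048 with a pseudocount of 0.5, and from -0.52 to 0.78 with a stage pair left out), EA6_EER1130+ (0.036 with medians set equal) and EA6_EER1014- (-0.16 to 0.23 with a stage pair left out). Of the other values for single named regions under the alternatives, 397 kept their direction and side of the threshold, 108 no longer passed and 8 passed anew. The median difference between larvae and embryos stayed above 0 under the alternatives run, from 0.30 to 0.66 in total RNA and 0.47 to 0.67 in dsRIP. Membership held 151 of the 232 regions when 50% of each region had to be shared and 115 with the upper 50% of each list by score.

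The fits paired dsRIP with total RNA by stage. No fit with a replicate number as a block was run, since the labels give none. Depth also limits the results: the median region had 41 reads over all 8 samples and 156 of the 232 had at least 30.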
